A study of Mus musculus with 12 samples.

Results

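The 7 genes described here bind, sense or move zinc: the metallothioneins Mt1 and Mt2, the metal-sensing transcription factor gene Mtf1, the zinc exporter Slc30a1, the manganese and zinc exporter Slc30a10, and the importers Slc39a8 and Slc39a14. They were chosen by symbol and were found through their Ensembl identifiers among the 57180 genes of the count files. Of the 7, 6 had enough reads to enter the test across 17163 genes, and Slc30a10 did not.

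Metallothioneins are small cysteine-rich proteins that hold zinc and copper and take up cadmium. In cells with surplus zinc, the factor MTF1 binds metal response elements in the promoters of Mt1, Mt2 and Slc30a1, so that free zinc is stored or pumped out. Their genes also answer to glucocorticoids and oxidants, and the kidney tubule is a main site of metallothionein storage of cadmium and of zinc reabsorption.

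RNA was measured in the kidney of 12 male C57BL/6J mice that were 60 days old at the start, with 4 mice in each of 3 groups. The Control group received the vehicle, saline with 2% Tween 80. The 10CBD group received 10 mg of cannabidiol (CBD) per kg of body weight and the 20CBD group 20 mg/kg in the same vehicle, all as 1 intraperitoneal injection a day for 28 days. CBD is a cannabinoid of the hemp plant that does not intoxicate. RNA came from tissue scrapes of 15 to 30 mg, so a library holds a mixture of cell types, and fewer cells of a type and less RNA per cell cannot be told apart.

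Each library held 15417867 to 23532088 counts on genes, and no pair of files was identical. Mitochondrially encoded genes took 3.53% to 23.42% of the counts, and 4 libraries were under 10%: Control replicate 2, 10CBD replicates 1 and 3, and 20CBD replicate 3. Markers of the proximal tubule, the main cell of the kidney cortex, summed to 9750 to 13800 CPM in Control, 9220 to 11600 in 10CBD and 8450 to 11600 in 20CBD, so the defining markers of the labelled tissue were present. CPM are counts per 1000000 counts of a library after TMM scaling, a correction for library composition. None of the markers of 12 cell types was at 0 in all libraries. The straight proximal tubule (S3) markers summed to 2120 to 2250 CPM in Control, 2450 to 3660 in 10CBD and 1800 to 2970 in 20CBD, and their part in the results was not tested.

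Mt1 (ENSMUSG00000031765) and Mt2 (ENSMUSG00000031762) lie next to each other on the plus strand of chromosome 8, at chr8:94905710-94906955 and chr8:94898819-94900207 (GRCm39). Mtf1 lies at chr4:124695897-124743593, Slc30a1 at chr1:191638808-191645361, Slc30a10 at chr1:185186973-185200959 and Slc39a8 at chr3:135531040-135594333, all on the plus strand, and Slc39a14 lies on the minus strand at chr14:70540678-70588914. Promoter windows, from 250 bases before to 50 bases after each RefSeq start, were found for 6 of the 7 genes, and Slc39a14 had no entry. The windows of Mt1, Mt2 and Slc30a1 are shown because these genes are the textbook targets of MTF1. The sequences are from RefSeq (GRCm38.p6), and their positions are those of exact matches in GRCm39: chr8:94905467-94905766 for Mt1, chr8:94898996-94899295 for Mt2 and chr1:191638643-191638942 for Slc30a1. Capitals mark the metal response element letters TGCACNC or TGCGCNC, with N for any base, on either strand; a match on the minus strand reads as the reverse complement.

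Mt1: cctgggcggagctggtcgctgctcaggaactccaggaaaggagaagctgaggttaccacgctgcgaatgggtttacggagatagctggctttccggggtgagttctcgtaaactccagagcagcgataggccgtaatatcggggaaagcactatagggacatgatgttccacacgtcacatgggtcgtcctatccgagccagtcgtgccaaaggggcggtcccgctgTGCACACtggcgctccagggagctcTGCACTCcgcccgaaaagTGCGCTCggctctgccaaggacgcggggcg

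Mt2: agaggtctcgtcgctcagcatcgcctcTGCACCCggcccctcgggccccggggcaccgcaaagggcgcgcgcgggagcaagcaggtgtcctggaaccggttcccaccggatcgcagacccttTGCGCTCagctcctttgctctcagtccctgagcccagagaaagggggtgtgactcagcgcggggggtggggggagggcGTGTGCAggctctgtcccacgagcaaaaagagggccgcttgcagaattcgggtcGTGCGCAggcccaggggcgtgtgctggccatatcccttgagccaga

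Slc30a1: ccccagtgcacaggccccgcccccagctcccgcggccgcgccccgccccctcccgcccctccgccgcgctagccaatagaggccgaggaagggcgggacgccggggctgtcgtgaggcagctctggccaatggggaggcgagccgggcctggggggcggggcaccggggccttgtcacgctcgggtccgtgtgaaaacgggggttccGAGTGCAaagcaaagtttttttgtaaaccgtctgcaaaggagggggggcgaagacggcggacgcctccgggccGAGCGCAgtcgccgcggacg

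The Mt1 window held 3 metal response element matches, the Mt2 window 4 and the Slc30a1 window 2. Among all 32851 promoter windows of the RefSeq table, 25.7% held at least 1 match, 7.11% at least 2, 1.97% at least 3 and 0.517% at least 4. The window of Slc30a10 held 3 matches, and that of Mtf1 held 0. In Slc30a10 the matches at -233 to -227 and -232 to -226 overlap on opposite strands, and overlapping matches were counted separately in all windows. Slc39a8 has a pair of starts in the table, 1 with no match and 1 with 1 match. The antioxidant response element letters TGACNNNGC, searched on both strands, occurred once each in the windows of Mt2, Slc30a1 and the first start of Slc39a8, and in 12.4% of all windows. These are matches of letters in a window around an annotated start, and neither binding nor the start used in these kidneys was measured. In Mt1, the matches at 3 to 9 and 21 to 27 lay after the annotated start. Bases beyond the windows were not searched, and elements near a start farther downstream would be missed. The counts, and the lack of an antioxidant match in the Mt1 window, therefore do not show which elements a gene has or lacks.

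**Figure D1:**
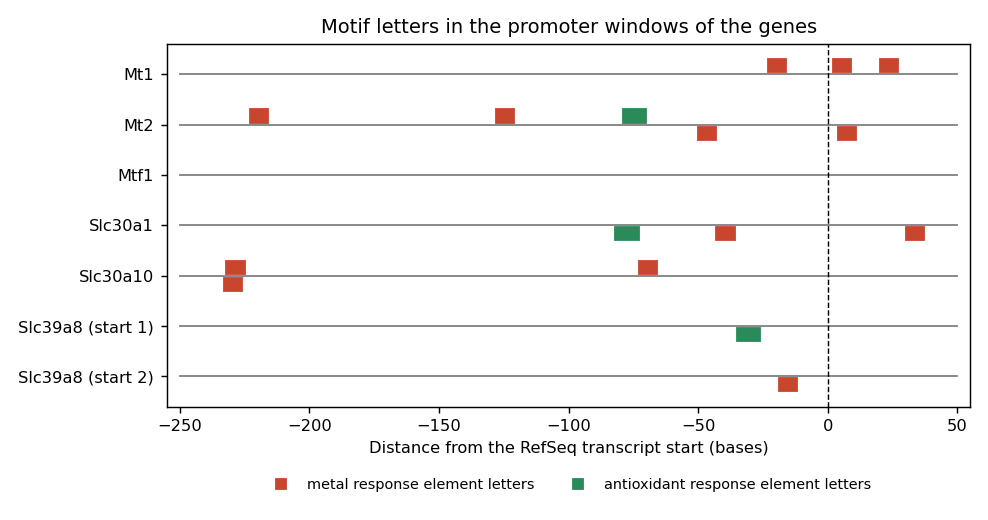
Positions of motif letters in the 300-base promoter windows of 6 genes, by distance in bases from the RefSeq transcript start (dashed line at 0); boxes above a line are on the plus strand and boxes below it on the minus strand. Metal response element matches (red) number 3 in Mt1, 4 in Mt2, 2 in Slc30a1 and 3 in Slc30a10, and 0 in Mtf1. The Slc30a10 matches at -233 to -227 and -232 to -226 overlap on opposite strands.

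Per kilobase of annotated exon, Mt1 had by far the highest counted level of the 7 genes in Control kidneys, at 102 ± 18.6 CPM per kb (SD, n = 4). Slc30a1 followed at 8.34 ± 1.22 and Slc39a8 at 8.06 ± 1.11, which did not differ beyond their spread. Mt2 stood at 5.17 ± 1.49 CPM per kb, Mtf1 at 2.42 ± 0.305 and Slc39a14 at 1.50 ± 0.147. Slc30a10, best known as the manganese exporter of liver and brain, was almost undetected, with 5 reads in all 12 libraries together: 1 in Control, 3 in 10CBD and 1 in 20CBD. A count of 3 corresponds to 0.126 to 0.198 CPM at these depths, so a lower level of Slc30a10 and any difference between groups were not detectable.

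The Mt2 level needs care, because 783 of its 950 exon bases (82.4%) lie under exons of the long noncoding gene Gm45774 on the opposite strand. The last 167 bases, chr8:94900041-94900207, are not shared. The libraries were directional, but the strand setting of the read counting is not given in the sources used here. Reads over shared bases are set aside as ambiguous if strand is ignored, and Gm45774 itself received 27 counts over the 12 libraries. Among protein-coding genes lying wholly under exons of the opposite strand, 18 of 30 had no count at all, against 2006 of 12615 (15.9%) of those that share no exon base. Wholly covered genes on the same strand had no count in 99 of 104 cases (95.2%). More than 600 counts in all were found for 6 of the 30 genes under the opposite strand (20.0%), for 1 of the 104 on the same strand (1.0%) and for 42.1% of those that share no exon base. Over all genes, noncoding ones included, the 2 covered classes were closer. No count was found for 254 of 336 genes under the opposite strand (75.6%) and 447 of 573 on the same strand (78.0%). Among genes that share no exon base it was 29.8%. More than 600 counts were found for 3.3%, 1.7% and 17.3% of these classes. These values do not settle the strand setting. Whether the level of Mt2 is understated is thus unknown and its rank against the other genes is uncertain. If strand was ignored, the Mt2 counts and the fold changes below would describe only the last 167 bases. The other members share at most 8.4% of their exon bases.

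The mean Mt2 level of both CBD groups lay above that of Control, and in the test across all genes neither difference passed the threshold. Mt2 stood at 6.34, 4.87, 5.44 and 2.99 CPM in the 4 Control kidneys (mean 4.91 ± 1.42, SD), at 14.9, 5.67, 13.3 and 7.98 in 10CBD (10.5 ± 4.36) and at 9.25, 11.7, 14.8 and 14.7 in 20CBD (12.6 ± 2.66). All 20CBD kidneys lay above all Control kidneys, while replicate 2 of 10CBD lay inside the Control range. The values rest on 55 to 151 reads per library in Control, 86 to 337 in 10CBD and 158 to 260 in 20CBD.

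In edgeR's quasi-likelihood test, Mt2 was 2.56-fold higher at 20 mg than in Control, a log2 fold change of 1.36 (SE 0.29, 95% interval 0.73 to 1.98), with a Benjamini-Hochberg adjusted p of 0.102, just short of the threshold of 0.1 used for calls. The exact two-sided permutation test of the same gene gave p = 0.0286, the smallest that 4 against 4 kidneys allow. Leaving out 1 of 3 libraries brought Mt2 under the threshold: the adjusted p from edgeR was 0.0815 without 10CBD replicate 1, 0.0492 without 10CBD replicate 2 and 0.0979 without 20CBD replicate 1, against a range of 0.0492 to 0.327 over all 12 libraries left out in turn. DESeq2 gave an adjusted p of 0.00215 for the same comparison.

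At 10 mg the log2 fold change of Mt2 was 1.10 (SE 0.29, 95% interval 0.48 to 1.72), or 2.14-fold, with an edgeR adjusted p of 0.680 and an exact permutation p of 0.0571. Between the doses, 20 mg against 10 mg, the log2 difference of Mt2 was 0.26 with an interval of -0.34 to 0.86, so a difference between the doses in either direction was not shown. That value was 0.58 with each library's mitochondrial percentage in the model (edgeR adjusted p = 0.281), 0.80 without the 4 libraries under 10% (0.973), and 0.06 (without 10CBD replicate 2) to 0.48 (without 10CBD replicate 1) with 1 library left out. Over both doses against Control it was 1.23 (SE 0.26, 2.34-fold, edgeR adjusted p = 0.151), with an exact permutation p of 0.00404, and 7 of 8 CBD kidneys lay above the highest Control kidney. The comparisons with Control share the same 4 Control mice.

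Within the 10 mg group, high Mt2 and a low mitochondrial share occurred in the same libraries. Replicates 1 and 3 of 10CBD, at 14.9 and 13.3 CPM of Mt2, had 3.53% and 4.55% mitochondrial counts, and replicates 2 and 4, at 5.67 and 7.98 CPM, had 15.28% and 15.30%. The same replicates 1 and 3 also had the highest sums of S3 markers, 3660 and 3390 CPM against 2500 and 2450 in the other two. At 20 mg the order was alike: replicates 3 and 4, at 14.8 and 14.7 CPM of Mt2, had 5.54% and 13.99% mitochondrial counts and S3 sums of 2970 and 2480 CPM, and replicates 1 and 2, at 9.25 and 11.7 CPM, had 20.56% and 23.42% and S3 sums of 1840 and 1800. Control replicate 2, at 5.77%, had 4.87 CPM of Mt2, inside the range of the other Control kidneys, and the Control S3 sums spanned only 2120 to 2250. The S3 sums of 20CBD replicates 1 and 2 lay below all Control sums, while their Mt2 lay above all Control kidneys. Without the 4 libraries under 10%, a comparison chosen after the data were seen, the log2 fold change of Mt2 was 0.46 at 10 mg (edgeR adjusted p = 0.930) and 1.26 at 20 mg (adjusted p = 0.0321, called).

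Adipocyte markers, which a scrape can carry in with the fat around the kidney, were lower on average in the CBD groups, with overlapping ranges. Their 5 genes summed to 114, 150, 30.5 and 126 CPM in Control, 68.6, 65.8, 17.0 and 26.7 in 10CBD and 13.1, 19.2, 9.78 and 37.1 in 20CBD, and 1 of the 5 was called. Control replicate 3, with 30.5 CPM of these markers, had 5.44 CPM of Mt2, within the range of the other Control kidneys. The part of adipocyte and S3 cells in the Mt2 values was not tested.

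**Figure D2:**
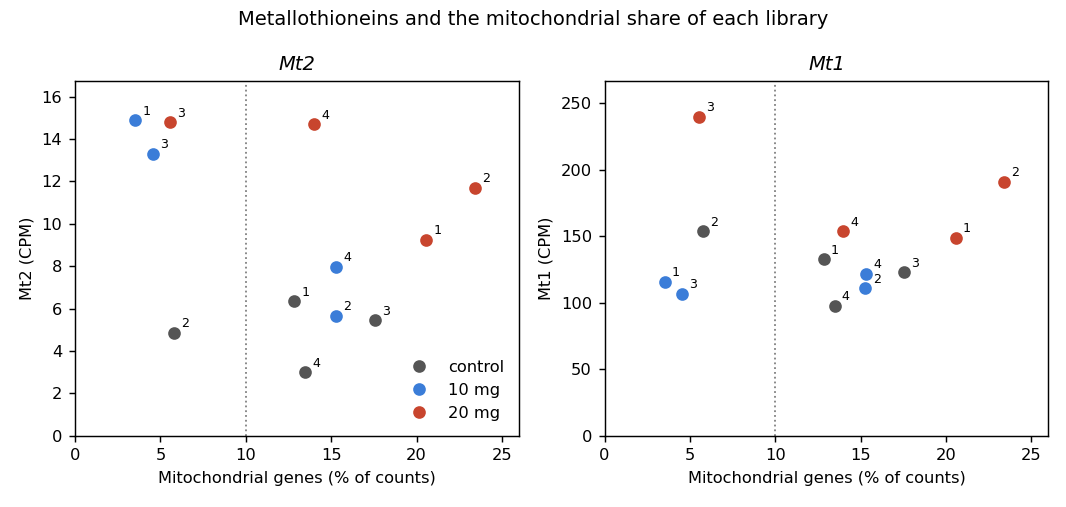
Mt2 (left) and Mt1 (right) in CPM against the percent of counts on mitochondrial genes, 1 point per kidney library with its replicate number and the 10% mark as a dotted line. In the 10 mg group, Mt2 was 14.9 and 13.3 CPM in the libraries at 3.53% and 4.55% and 5.67 and 7.98 CPM in those at 15.28% and 15.30%.

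Mt1, the metallothionein with the most counts in these libraries, had its highest levels at 20 mg, again without passing the test. It stood at 133, 154, 123 and 97.8 CPM in Control (mean 127 ± 23.1, SD), at 116, 111, 107 and 122 in 10CBD (114 ± 6.31) and at 149, 191, 240 and 154 in 20CBD (184 ± 42.1). All 20CBD kidneys lay above all 10CBD kidneys, whereas 20CBD and Control overlapped through Control replicate 2 alone. Replicate 3 of 20CBD was the highest of the 12 and is also a library with a low mitochondrial share.

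At 20 mg Mt1 was 1.45-fold the Control level, a log2 fold change of 0.53 (SE 0.16, 95% interval 0.18 to 0.88) with an edgeR adjusted p of 0.362. The exact permutation p was 0.0571. Against 10 mg it was 1.61-fold higher, a log2 difference of 0.69 (SE 0.16, 95% interval 0.34 to 1.04), with an edgeR adjusted p of 0.758 and an exact permutation p of 0.0286. At 10 mg against Control its log2 fold change was -0.16 with an interval of -0.50 to 0.19. Mt1 thus passed the threshold in no comparison of the main test. With each library's mitochondrial percentage added to the model, edgeR called Mt1 both against Control (0.59, adjusted p = 0.0316) and against 10 mg (0.78, adjusted p = 0.0711), in a fit that called 1386 genes rather than 52 at 20 mg against Control.

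**Figure D3:**
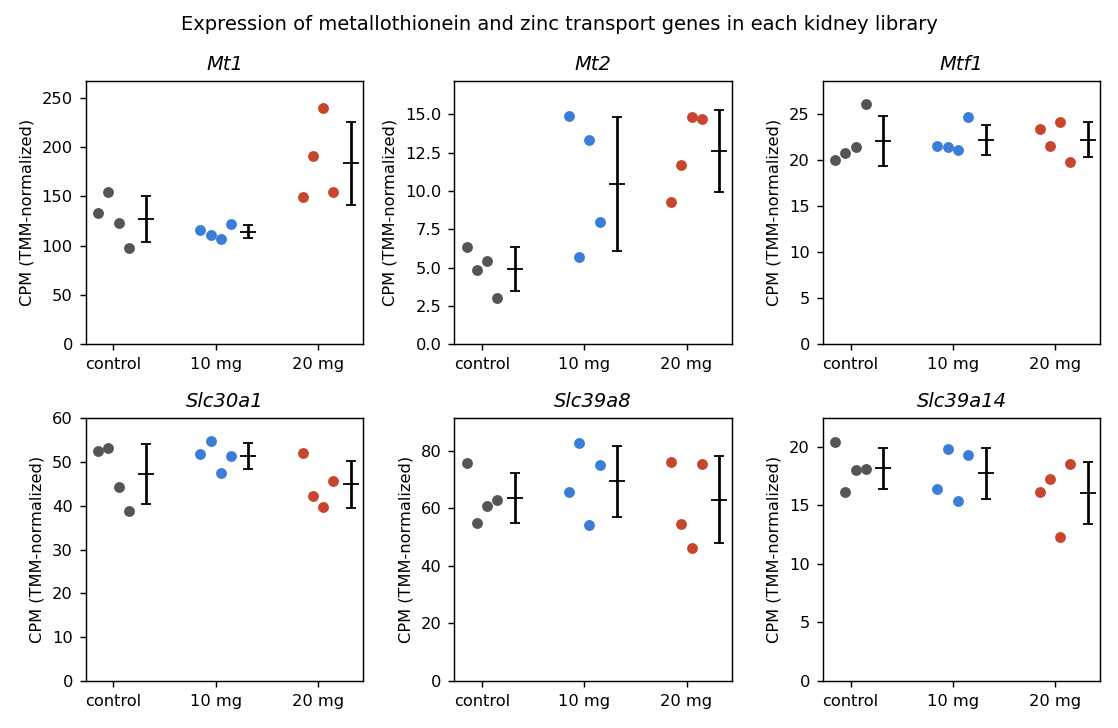
CPM (TMM-scaled, axes from 0) of the 6 tested genes in each kidney library, 4 per group, with the group mean and SD beside the points. Mt2 in the 20 mg group (9.25 to 14.8 CPM) sits above all Control kidneys (2.99 to 6.34), Mt1 in the 20 mg group (149 to 240) sits above the 10 mg group (107 to 122), and the groups overlap in the other 4 genes.

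Mt2 varied widely among mice of a group for a gene of its level. Within groups the SD of log2 CPM was 0.25 for Mt1 and 0.49 for Mt2, and 92.8% of the 500 genes nearest to Mt2 in level had a smaller one, against 64.0% for Mt1. Over the 12 kidneys the log2 CPM of Mt1 and Mt2 had a Pearson r of 0.48 (permutation p = 0.113, adjusted over 15 gene pairs 0.292) and a Spearman rho of 0.34 (permutation p = 0.276, adjusted 0.733), and without the 2 kidneys farthest from the Mt1 median r was 0.26. Leaving out 10CBD replicate 3 alone gave r = 0.62 (permutation p = 0.0404), the highest of 12 such values. A relation between them was therefore not shown over all mice. Over the 8 kidneys with at least 10% mitochondrial counts, a split chosen after the data were seen, r was 0.87 (permutation p = 0.00682).

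Mtf1, whose protein switches metallothionein genes on when zinc is plentiful, was at nearly the same level in all groups: 20.0 to 26.1 CPM in Control, 21.1 to 24.6 in 10CBD and 19.8 to 24.1 in 20CBD. Its log2 fold change was 0.01 at either dose, with an interval of -0.25 to 0.27 in both cases. MTF1 is known to be regulated mainly by zinc binding and movement into the nucleus, which read counts do not measure. Its within-group SD of 0.14 was the smallest of the 6 genes.

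Slc30a1, which pumps zinc out across the plasma membrane and is the other textbook MTF1 target here, stood at 38.9 to 53.3 CPM in Control, 47.6 to 54.9 in 10CBD and 39.7 to 52.2 in 20CBD. Its log2 fold change was 0.12 at 10 mg (95% interval -0.15 to 0.39) and -0.07 at 20 mg (-0.34 to 0.20), with edgeR adjusted p of 0.928 and 0.925. The intervals leave out 1.36, the log2 fold change of Mt2 at 20 mg. MTF1 activity was not measured, and a part of MTF1 in the values of either gene was not tested.

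Neither importer passed the test. Slc39a8 (ZIP8), which brings zinc, manganese and cadmium into cells, ranged from 54.9 to 75.8 CPM in Control, 54.1 to 82.9 in 10CBD and 46.2 to 76.2 in 20CBD, with log2 fold changes of 0.12 (-0.25 to 0.50) and -0.01 (-0.39 to 0.36) at 10 and 20 mg. Slc39a14 (ZIP14), which carries zinc, manganese and iron, ranged from 16.1 to 20.4 CPM in Control, 15.4 to 19.8 in 10CBD and 12.3 to 18.5 in 20CBD, with log2 fold changes of -0.03 (-0.34 to 0.27) and -0.18 (-0.49 to 0.13). Their adjusted p from edgeR lay between 0.805 and 0.995, and their exact permutation p between 0.286 and 0.886.

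The 2 importers varied together over all 12 kidneys, but not detectably over the 8 with at least 10% mitochondrial counts. Over the 12 libraries Slc39a8 and Slc39a14 had a Pearson r of 0.79 (permutation p = 0.00151, adjusted over 15 pairs 0.0226) and a Spearman rho of 0.72 (permutation p = 0.0104, adjusted 0.156). Without the 2 kidneys farthest from the Slc39a8 median r was 0.59, and with the group means removed r was 0.84 (permutation p = 0.00328, adjusted 0.0492). The 4 libraries under 10% mitochondrial counts had the lowest values of their groups for both genes: Slc39a8 stood at 54.9 CPM in Control replicate 2, 65.7 and 54.1 in 10CBD replicates 1 and 3 and 46.2 in 20CBD replicate 3, and Slc39a14 at 16.1, 16.4, 15.4 and 12.3 in the same libraries. Over the 8 other kidneys, a split chosen after the data were seen, r was 0.45 (permutation p = 0.259). With 1 library left out r stayed at 0.67 to 0.88. The split leaves few kidneys and takes out the lowest values, so it cannot show whether the relation rests on those 4 libraries.

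**Figure D4:**
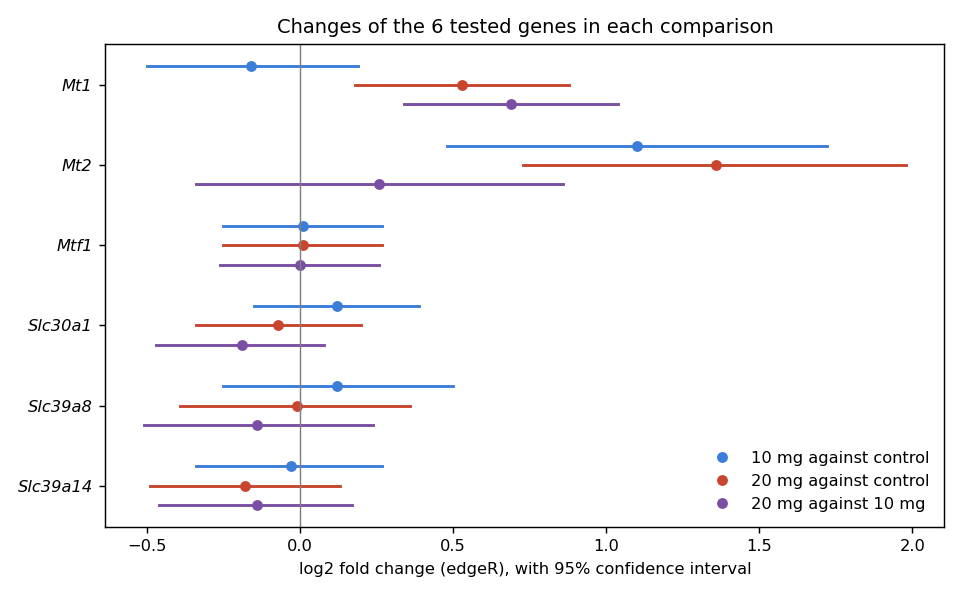
Log2 fold change from edgeR for the 6 tested genes at 10 mg against Control, 20 mg against Control and 20 mg against 10 mg, with 95% confidence intervals. The intervals leave out 0 for Mt2 at both doses against Control and for Mt1 at 20 mg against either group, and include it in every comparison for the other 4 genes.

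Counted together, 0 of the 6 tested genes passed an edgeR adjusted p of 0.1 in any comparison. Among all 17163 genes, 5 passed at 10 mg (0.0291%), 52 at 20 mg (0.303%), 0 at 20 mg against 10 mg (0%) and 24 over both doses (0.140%), so few genes of any kind were called. DESeq2, which called 40, 182, 12 and 136 genes in these comparisons, called Mt2 in each comparison with Control and Mt1 between the doses. At an unadjusted p under 0.05, 1 of the 6 passed at 10 mg (Mt2), 2 at 20 mg (Mt1 and Mt2), 1 between the doses (Mt1) and 1 over both doses (Mt2). The same share over all genes was 5.67% at 10 mg, 8.45% at 20 mg, 6.31% between the doses and 7.04% over both doses. All 20CBD kidneys lay above all Control kidneys for 1 of the 6 (Mt2), as they did for 2.67% of all tested genes, and above all 10CBD kidneys for 1 of the 6 (Mt1), as for 1.70% of all. At 10 mg against Control the groups overlapped for all 6, while 3.19% of all tested genes had groups that did not. The median log2 fold change of the 6 was 0.06 at 10 mg and 0.00 at 20 mg, beside 0.012 and 0.015 over all genes.

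The other genes of zinc, copper and iron handling gave 0 calls in every comparison of the main edgeR test, and DESeq2 also called 0 of them; edgeR with the mitochondrial percentage in the model called 2 at 20 mg, Atp7a and Sod1. Of 41 listed genes, 35 were tested, of which 0 had an unadjusted p under 0.05 at 10 mg, 1 at 20 mg (Atp7a), 1 between the doses (Slc31a2, named after its value was seen) and 1 over both doses (Atp7a), and their median log2 fold change was -0.06 at either dose against Control. The other zinc exporters of the Slc30 family (6 of 8 tested) ranged from -0.10 to 0.15 at 20 mg, and the other ZIP importers of the Slc39 family (10 of 12 tested) from -0.40 to 0.05. The metallothioneins Mt3 and Mt4, known from brain and from squamous epithelium, were too low to enter the main test, with 82 and 9 counts over all libraries.

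The copper genes (9 of 9 tested), which share metallothionein as a store, ranged from -0.55 to 0.33 at 20 mg, and the iron genes (10 of 10 tested) from -0.42 to 0.29. The farthest from 0 over both doses in each list were Slc30a7, a zinc exporter into the Golgi, at -0.19 (edgeR adjusted p = 0.859), Slc39a7, which releases zinc from the endoplasmic reticulum, at -0.26 (0.892), the copper pump Atp7a at -0.43 (0.677) and the transferrin receptor Tfrc at -0.30 (0.775). Mt2 at 20 mg was thus farther from 0 than any of the 35, of which the nearest was Atp7a at -0.55 (SE 0.23, edgeR adjusted p = 0.526).

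**Figure D5:**
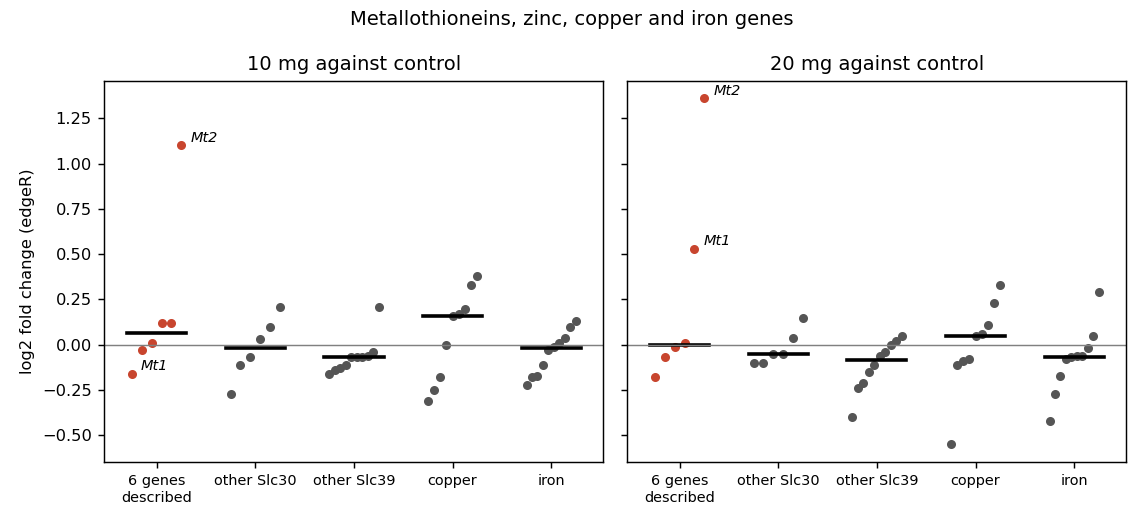
Log2 fold change from edgeR at 10 mg (left) and 20 mg (right) against Control for the 6 genes described (red) and for 35 other tested genes of zinc export, zinc import, copper and iron handling (grey), with a bar at each list's median. Mt2 at 1.10 and 1.36 stands above every other gene shown, while the medians of the other lists lie between -0.09 and 0.16.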

How the data were processed

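Kidney libraries of 12 mice (CORALL mRNA-Seq V2, paired ends) were sequenced, trimmed with Flexbar, aligned to GRCm39 with STAR 2.7.5c and counted per gene with HTSeq 1.99.2 by the authors, after FastQC 0.11.9 checks. The deposited values are raw counts per Ensembl gene, without normalization. Annotation release, strand setting, use of molecular identifiers and hour of sampling are not given in the sources used here. Reads without a feature took 12.11% to 19.89% and ambiguous reads 4.72% to 5.29% of uniquely mapped reads, and both stayed out of library sizes. Symbols and positions came from GENCODE vM39, which matched 56620 of 57180 identifiers (99.95% of counts).

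Here all 12 libraries were fitted together with edgeR 4.0.16 (R 4.3.3; TMM scaling, filterByExpr, glmQLFit and glmQLFTest), and p-values were Benjamini-Hochberg adjusted over 17163 genes, with calls at an adjusted p under 0.1. CPM are TMM-scaled; log2 CPM used a prior count of 2. Single genes were also tested by two-sided exact permutation of log2 CPM means (SciPy 1.17.1; 70 arrangements of 4 against 4), and correlations by 100000 permutations. Correlations were planned over all pairs of the 7 genes and run over the 15 pairs of the 6 tested. Counting noise is carried by the fit; floors of 3 counts cover counting error only. The fit was tested on data simulated for 20 mg against Control. It recovered 67.0% of changes of log2 1 and 90.0% of changes of log2 2, and 9.77% of its calls fell on unchanged genes. Alternatives were RLE and upper-quartile scaling, DESeq2 1.42.0, limma-voom 3.58.1, other filters, a replicate block, the mitochondrial share as a covariate, removal of mitochondrial genes, a threshold of 0.05 and each library left out.

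The genes and lists were chosen with earlier results of these data known. Named genes are the 7, the gene of each list farthest from 0 over both doses, any called gene of a list, and those most like the 7 in pattern. Each GEO sample is 1 mouse, and replicate numbers were not used to pair mice.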

Additional observations from a re-analysis of the deposited data

Results flagged for a closer look

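Of 18 groups of 4 kidneys tested (6 genes in 3 groups), 1 held a kidney far from the others by Dixon's criterion: Mtf1 in replicate 4 of 10CBD stood at 24.6 CPM against 21.1 to 21.5 in the other 3, a gap of 0.886 of the group's range (critical value 0.829). Chance flags about 1 in 20 such groups. Without that library the log2 fold change of Mtf1 at 10 mg against Control was -0.05, beside 0.01 with it.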

How the results depend on the processing

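The number of the 6 genes called at 20 mg against Control moved from 0 to 1 (Mt2) with upper-quartile scaling, DESeq2, no filter on low counts, only the groups compared, and without the 4 libraries under 10% mitochondrial counts, and to 2 (Mt1 and Mt2) with the mitochondrial covariate; with 1 library left out it was 0 to 1. Over both doses it was 1 (Mt2) with DESeq2, no filter and the covariate, and 0 to 1 with 1 library left out (1 without 10CBD replicate 2, adjusted p = 0.0398). At 10 mg it was 1 (Mt2) with DESeq2 (adjusted p = 0.0996) and no filter, and between the doses 1 (Mt1) with DESeq2 (0.0994), no filter (0.00499) and the covariate. Of the 35 other metal genes, 2 (Atp7a and Sod1) were called at 20 mg with the covariate. Mt2 at 20 mg kept its direction throughout, at 1.26 to 1.49 over the alternatives and 1.18 to 1.51 with 1 library left out. Without the filter, 331, 416, 256 and 393 genes were called at 10 mg, at 20 mg, between the doses and over both; with the covariate 15, 1386, 62 and 276; with DESeq2 40, 182, 12 and 136; at an adjusted p under 0.05, 3, 23, 0 and 13.

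The Mt1 and Mt2 correlation was 0.32 to 0.62 with 1 kidney left out (p past 0.05 without 10CBD replicate 3) and 0.87 without the 4 libraries; that of Slc39a8 and Slc39a14 was 0.67 to 0.88 and 0.45 (p = 0.259). Signs turned for several values, and not only for those nearest 0. In the main fit Slc39a7 over both doses was -0.26, Tfrc at 10 mg -0.18 and Slc30a7 between the doses 0.17, and each turned in an alternative below. Without the filter Mtf1 was -0.02 at 10 mg and -0.01 over both doses. With the covariate Slc39a14 at 10 mg was 0.02 and Slc30a7 between the doses -0.15. Without the 4 libraries Slc39a14 and Tfrc at 10 mg were 0.05 and 0.08, Mtf1 -0.06 at 20 mg and -0.01 over both, and Slc30a1 and Slc39a8 at 20 mg 0.05 each. With 1 library left out, Mtf1 ranged from -0.05 to 0.10 at 10 mg and from -0.03 to 0.10 at 20 mg and over both, Slc30a1 over both from -0.06 to 0.09, Slc39a14 at 10 mg from -0.09 to 0.03, Slc39a8 from -0.12 to 0.11 at 20 mg and -0.01 to 0.15 over both, Slc39a7 from -0.33 to 0.16 at 10 mg and -0.48 to 0.02 over both, Slc30a7 at 20 mg from -0.25 to 0.05 and Tfrc at 10 mg from -0.29 to 0.04. The cause was not tested.

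Same-numbered kidneys had r from -0.33 to 0.32 over 12 pairs, 4 of them over 0.1, with no common direction. Whether the numbers follow a shared batch or order was not tested. With the replicate block 0 of the 6 genes were called in each comparison, Mt2 at 20 mg was 1.40 (adjusted p = 0.131), and 4, 27, 0 and 17 genes were called in all. Depth limits Slc30a10, Mt3 and Mt4, which did not enter the main test.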

Other observations

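The genes whose log2 CPM varied most like the mean of Mt1 and Mt2 over the 12 libraries, with group means removed, were Cebpb, a transcription factor gene of the acute-phase response (r = 0.97), the ceramide synthase gene Cers5 (0.96), the lysophospholipase gene Lypla2 (0.96), Hyi (0.96) and the G protein subunit gene Gngt2 (0.95). That mean leans to Mt2, whose within-group SD was 0.49 against 0.25 for Mt1. With group means removed, Mt1 and Mt2 themselves had r = 0.38. For the other genes the most alike were Gm9493 for Mtf1 (0.95), the mitotic gene Hmmr for Slc30a1 (0.92), the Wnt secretion gene Wls for Slc39a8 (0.95) and Nhsl1 for Slc39a14 (0.97). These values are descriptions over 12 libraries that share depth and tissue mix, and they are the highest among 17163 genes.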
